A study of Mus musculus with 11 samples.

Results

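The genes described are 56 members of the interferon response and of RNA sensing, taken by gene name, and all 56 were found among the 26398 genes listed for both mouse embryonic stem cells (mESCs) and mouse embryonic fibroblasts (MEFs). By role they were 4 receptor chains, 8 transcription factors, 9 sensors or adaptors (of RNA, DNA or bacterial products), 20 antiviral effectors, 3 genes of the ISG15 system, 5 genes of antigen processing and 7 other interferon-induced genes. Poly(A) RNA was sequenced from 11 libraries in 4 groups, namely wild-type (WT) mESCs (n = 2), Atxn7l3-/- mESCs (n = 3), WT MEFs (n = 3) and MEFs labelled Atxn7l3-/- (n = 3), all of the DBA/2 x C57BL/6 background, with a null allele made by FLP from a construct with loxP sites around exons 2 to 12. The mESCs grew with LIF, 15% FCS, PD0325901 at 1 uM and CH99021 at 3 uM, first on feeder cells that were then removed, and the MEFs, from E10.5 embryos, grew in DMEM with 10% FCS. Per the study's methods each line came from its own blastocyst or embryo, head and gut were removed before MEFs were made, and 1 further WT mESC dataset was set aside by the authors and was not analysed here. No interferon, virus or RNA ligand is named as an agent in any group, so the values are levels without an added stimulus. Library totals were 44323540 and 45234276 counts in WT mESCs, 35050190 to 40459852 in Atxn7l3-/- mESCs, 34515342 to 49602605 in WT MEFs and 38283644 to 45963728 in the MEFs labelled Atxn7l3-/-. Levels are CPM, read counts scaled to a library of 1e6 reads with normalization over the 11 libraries together.

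Cells sense foreign RNA with cytosolic helicases such as RIG-I, the product of Ddx58, and MDA5, the product of Ifih1, and with Toll-like receptors, and the adaptor MAVS passes the helicase signal on to the transcription factors that switch on interferon genes. Secreted interferon binds its receptors, and JAK kinases then activate STAT proteins, which with IRF9 turn on antiviral genes through a DNA element called ISRE, while interferon gamma acts through an element called GAS. Pluripotent stem cells are known to respond weakly to interferon and to hold some antiviral genes at a constant level instead, whereas fibroblasts respond fully. ATXN7L3 is an adaptor that histone H2B deubiquitylases need for their activity, and the question put to the members was whether their levels differed between genotypes in each cell type and between the cell types.

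Atxn7l3 itself was at 199 and 200 CPM in WT mESCs and at 3.28, 1.60 and 0.814 CPM in Atxn7l3-/- mESCs 1, 2 and 3. In MEFs it was at 87.2, 116 and 106 CPM in WT and at 57.1, 55.7 and 73.1 CPM in the libraries labelled Atxn7l3-/-. The mean of the knockout libraries was thus 0.950% of the WT mean in mESCs, with a log2 fold change of -6.65 and an edgeR adjusted p of 0.0211, and it was lower in 3 of 3. In MEFs it was 60.2% of the WT mean, with a log2 fold change of -0.74 and an edgeR adjusted p of 0.0715, also lower in 3 of 3. The mESC call ended without WT 1 (log2 fold change -6.66, adjusted p = 0.138) or WT 2 (-6.65, adjusted p = 0.0659), with nearly the same fold change. Without WT 1 edgeR called none of 18568 genes and without WT 2 none of 18748, where 1405 and 1332 were higher and 1527 and 1662 lower at an unadjusted p below 0.05, and without Atxn7l3-/- 1 it called 3 of 17530, so that nearly every mESC call ended there; DESeq2 on all libraries called 1714 genes higher and 1711 lower. In MEFs a correction for GC content brought the value to -0.34. Since the MEF value did not pass, every direction given for MEFs is that of libraries labelled Atxn7l3-/-, whose deposited counts are per gene and not per exon. The values of Atxn7l3 are levels of RNA and give no measure of its protein.

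The labelled cell types were checked on marker lists. Summed over 8 pluripotency genes, CPM ran from 4431 to 5085 in mESC libraries. For MEFs 6 of the 8 were listed, and their sums ran from 43.5 to 102 CPM. Summed over 11 fibroblast genes, CPM ran from 53.2 to 490 in mESCs and from 9449 to 49843 in MEFs. Of 10 fibroblast genes tested in mESCs, edgeR called 3 higher in Atxn7l3-/- (Col1a1, Col5a1 and Postn) and 0 lower, with 6 higher and none lower at an unadjusted p below 0.05 and 5 higher (Col3a1 and Lum too) and none lower by DESeq2. Their sums were 53.2 and 141 CPM in WT and 344, 490 and 372 CPM in Atxn7l3-/- mESCs, and the most abundant gene was Col1a1 except in WT 1, where it was Col5a1. Lum was at 0 in WT 1 and Dcn in WT 2, and both stayed at or below 0.681 CPM in the 5 libraries. The call of Col1a1 ended without WT 1 (adjusted p = 0.138), WT 2 (0.0659), Atxn7l3-/- 1 (0.116) or 2 (0.0680). That of Col5a1 ended without WT 1 (0.206), WT 2 (0.153) or Atxn7l3-/- 1 (0.0835), and that of Postn without WT 1 (0.170), WT 2 (0.123), Atxn7l3-/- 1 (0.109) or 2 (0.0593). The part of these genes in the mESC results was not tested. Libraries also differed in sex markers. Xist, the RNA of the inactive X, was at 48.9 and 45.6 CPM in Atxn7l3-/- mESCs 1 and 2, and the Y-linked Ddx3y was there at 2.90 and 0.788 CPM, against 81.4, 173 and 188 CPM in WT 1, WT 2 and Atxn7l3-/- 3. In MEFs, WT 3 had Xist at 343 CPM and Ddx3y at 0.249 CPM, and the other 5 libraries had Xist at or below 0.751 CPM and Ddx3y at 65.6 CPM or more. Where a call below ended with 1 library left out, that library and its adjusted p are given.

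A member was called when its adjusted p in edgeR's quasi-likelihood test was at or below 0.05, over all genes tested. In mESCs 51 of the 56 members passed the filter on low counts. Of these, Tap1, a peptide transporter subunit, was called higher and Xaf1, an interferon-induced gene linked to apoptosis, was called lower, each 1 of 51 (1.96%), beside 3.08% of 17800 genes called higher and 3.88% called lower. CPM did not overlap between genotypes for 7 members that were higher and 13 that were lower in Atxn7l3-/- mESCs, beside 22.3% and 27.6% of all genes tested. In MEFs 54 members were tested, and 4 were called higher in the libraries labelled Atxn7l3-/- (7.41%, beside 5.01% of 15958 genes), namely Trim25, Tlr4, Irf5 and Eif2ak2. Tap2, the partner of Tap1, was the 1 member called lower (1.85%, beside 4.39%). CPM did not overlap for 9 higher and 6 lower members in MEFs, beside 19.7% and 19.8% of all genes. Of the called shares that of members higher in MEFs lay above the share of all genes, and the other 3 lay below. The median log2 fold change of the members was 0.12 in mESCs (all genes 0.04) and -0.08 in MEFs (all genes -0.06). At an unadjusted p below 0.05 there were 7 higher and 8 lower members in mESCs and 9 higher and 5 lower in MEFs, and DESeq2, over 56 members in each cell type, called 5 and 5 in mESCs and 9 and 4 in MEFs, beside 1714 and 1711 of 31107 genes and 1616 and 2349 of 29450.

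**Figure D1:**
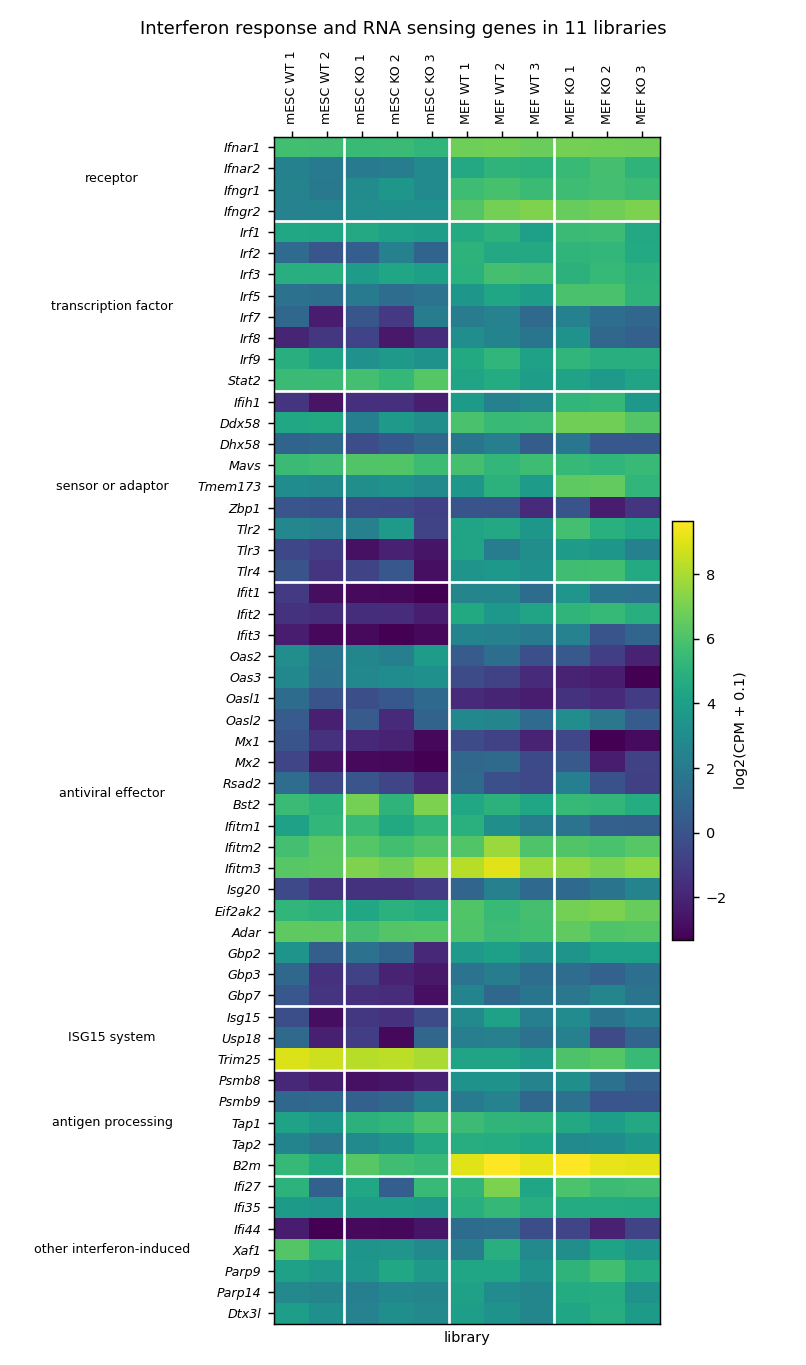
Heat map of log2(CPM + 0.1) for the 56 members (lines, by role) in the 11 libraries (columns, by group), with white lines between groups and roles. Levels differed between mESC and MEF libraries for most receptors, Ifit genes and B2m, with 26 members called higher and 6 lower in WT MEFs, and in few members between the genotypes.

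WT MEFs and WT mESCs were compared in 1 fit of the 11 libraries, in which all 56 members were tested. Of these 26 were called higher in WT MEFs (46.4%, beside 26.8% of 19312 genes) and 6 lower (10.7%, beside 27.1%), and in both directions together 54.0% of all genes were called. Ifit1, Ifit3, Psmb8 and Ifi44 among the 26, which did not pass the filter in mESCs alone, and Oas3 and Oasl1 among the 6, which did not in MEFs alone, were tested here through the cell type in which they were high, so the counts only describe the members. The 6 lower ones were Stat2, Oas3, Oasl1, Adar, Trim25 and Xaf1. The median log2 difference was 1.38 for the members and -0.01 for all genes, and 42 of the 56 had a difference above 0. Cell type cannot be told apart from culture medium, feeders or any batch of the 2 tables. All 56 members exceeded 3 counts, taken as the floor, in every WT MEF library, and 50 did in every WT mESC library; the floor was 0.0579 to 0.0927 CPM and covers counting error only. In Atxn7l3-/- mESCs 4 members (Ifit1, Ifit3, Mx2 and Ifi44) exceeded it in none of the 3 libraries. Ifih1, Ifit1, Ifit3, Isg15 and Ifi44, called higher in WT MEFs, exceeded the floor in 1 of the 2 WT mESC libraries, so the sizes of their differences rest on few counts. A fit of the 5 WT libraries alone called 25 members higher and 4 lower in WT MEFs and ended the calls of Adar (adjusted p = 0.0647), Eif2ak2 (0.0701), Tmem173 (0.0743) and Xaf1 (0.0836). Leaving out 1 library ended the call of 7 of the 26 and of 2 of the 6. The 7 were Irf8 (adjusted p = 0.0628 without mESC WT 1), Tap1 (0.0898 without mESC WT 2), Isg20 (0.0920 without mESC WT 2), Gbp7 (0.0757 without MEF WT 1 and 0.193 without mESC WT 2), Ddx58, Tmem173 and Eif2ak2. Ddx58 gave adjusted p = 0.0561 without MEF WT 1, 0.124 without mESC WT 1 and 0.0950 without mESC WT 2. Tmem173 gave 0.128 without MEF WT 2, 0.0510 without Atxn7l3-/- mESC 1, 0.134 without mESC WT 1 and 0.157 without mESC WT 2. Eif2ak2 gave 0.0548 without MEF Atxn7l3-/- 1, 0.101 without MEF WT 1, 0.0636 without MEF WT 3, 0.102 without mESC WT 1 and 0.197 without mESC WT 2. Of those called lower, Adar gave 0.0790 without MEF WT 2, 0.0971 without MEF WT 3, 0.118 without mESC WT 1 and 0.137 without mESC WT 2, and Xaf1 gave 0.0699 without MEF WT 1, 0.0964 without MEF WT 3 and 0.254 without mESC WT 1.

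**Figure D2:**
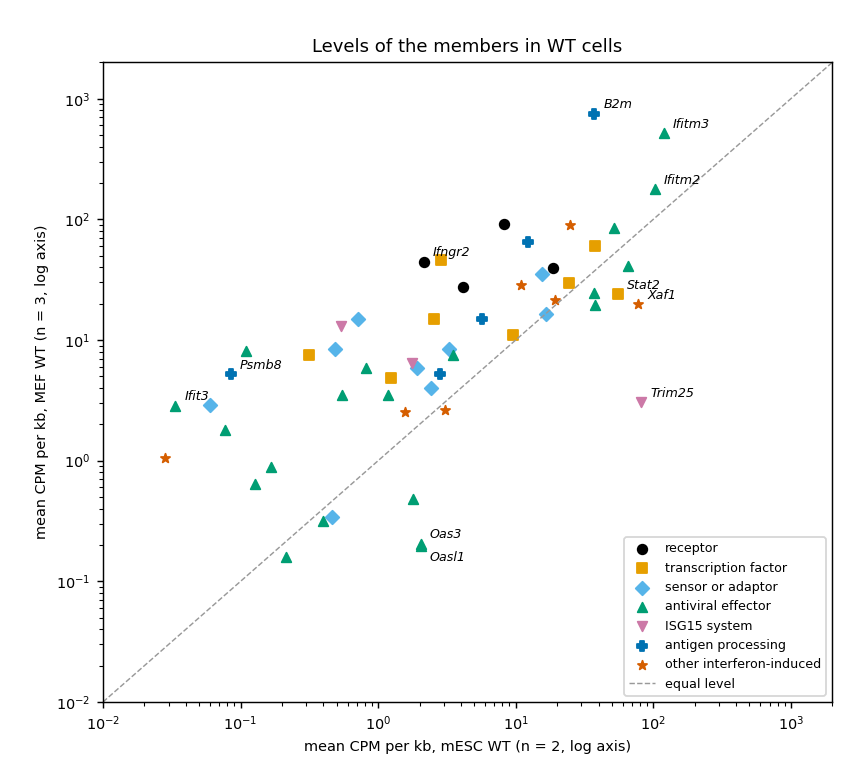
Mean CPM per kb of transcript in WT MEFs (vertical, n = 3) against WT mESCs (horizontal, n = 2), both on log axes, 1 point per member with colour and shape by role and a dashed line at equal levels. B2m and Ifitm3 lay highest in MEFs at 748 and 516 CPM per kb, and Trim25, at 81.9 CPM per kb in mESCs and 3.06 in MEFs, lay farthest below the line.

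Promoters are given for members called together between the cell types. The 250 bases before the start were available from RefSeq (GRCm38.p6) for 44 of the 56 members. An ISRE-like motif, GAAANNGAAA or TTTCNNTTTC on the other strand, was found in 13 of the 44 (29.5%) and in 3.46% of 27025 genes (2.98% of 32851 promoters). A GAS-like motif, TTCNNNGAA, which reads the same on both strands, was found in 10 of 44 (22.7%) and in 8.13% of the genes. The ISRE-like matches were in Irf2, Stat2, Ifit1, Ifit3, Oas3, Rsad2, Bst2, Ifitm2, Gbp2, Gbp3, Gbp7, Isg15 and B2m. Of the 6 matched members called higher in WT MEFs than in WT mESCs, 4 are shown, and Irf2 and Gbp7 are not. Ifit1 and Ifit3 were tested there through the MEFs, in which they were high, so their calls only describe them. The 3 matches of Isg15 overlap at 69, 63 and 57 bases before the start (chr4:156200819-156201068, minus strand). Ifit1 and Ifit3 have 2 matches each (chr19:34640639-34640888 and chr19:34583279-34583528, plus strand). B2m, the member with the highest level per kb in WT MEFs, has 1 match (chr2:122147437-122147686, plus strand). Capitals mark the ISRE-like matches.
Isg15: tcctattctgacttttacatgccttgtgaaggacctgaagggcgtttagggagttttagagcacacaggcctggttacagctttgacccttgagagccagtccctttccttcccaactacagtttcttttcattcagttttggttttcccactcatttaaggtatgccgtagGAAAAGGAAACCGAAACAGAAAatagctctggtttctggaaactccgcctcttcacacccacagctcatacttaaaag
Ifit1: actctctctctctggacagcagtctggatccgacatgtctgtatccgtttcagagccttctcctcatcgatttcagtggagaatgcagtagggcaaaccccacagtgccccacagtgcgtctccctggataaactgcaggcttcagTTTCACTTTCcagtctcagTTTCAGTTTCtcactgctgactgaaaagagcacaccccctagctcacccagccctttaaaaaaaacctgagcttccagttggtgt
Ifit3: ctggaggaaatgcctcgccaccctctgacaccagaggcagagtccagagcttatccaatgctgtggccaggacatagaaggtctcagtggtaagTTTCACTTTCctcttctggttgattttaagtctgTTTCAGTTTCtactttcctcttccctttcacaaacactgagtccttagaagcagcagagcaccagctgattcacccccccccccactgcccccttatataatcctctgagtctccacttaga
B2m: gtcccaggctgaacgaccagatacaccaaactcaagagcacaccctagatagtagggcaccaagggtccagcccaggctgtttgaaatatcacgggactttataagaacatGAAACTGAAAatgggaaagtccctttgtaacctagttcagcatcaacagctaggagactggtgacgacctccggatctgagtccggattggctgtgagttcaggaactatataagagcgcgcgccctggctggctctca
A match is a description of letters and not a site in use, and where there is no match these letters are not in the window. In WT MEFs over WT mESCs the median log2 difference was 1.57 for the 13 members with the ISRE-like motif, of which 6 were called higher and 2 lower. It was 1.39 for the 31 without it, of which 17 were called higher and 4 lower. Of all genes tested 26.8% were called higher and 27.1% lower. Members tested through the cell type in which they were high are among these counts, which only describe the members. In the genotype tests edgeR called 0 of 11 members with the motif in mESCs, where 3 had an unadjusted p below 0.05, and 0 of 12 in MEFs, where 0 had one, and DESeq2 called 0 in both. Of the members without it edgeR called 2 of 29 in mESCs and 3 of 30 in MEFs, where 10 and 10 had an unadjusted p below 0.05 and DESeq2 called 9 and 9. Of all genes edgeR called 3.08% higher and 3.88% lower in mESCs, and 5.01% and 4.39% in MEFs. With so few members, calls of 0 do not set those with the motif apart. The GAS-like motif was in Ifnar2, Irf1, Irf2, Irf8, Ifit2, Bst2, Isg20, Eif2ak2, Gbp7 and Psmb8.

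Whether the knockout effect itself differed between the cell types was tested as the effect in MEFs minus the effect in mESCs. It was called for 6 members (10.7%, beside 11.4% of 19312 genes in either direction). The effect was more positive in MEFs for Trim25, Ddx58 and Eif2ak2 and more negative in MEFs for Tap1, Tap2 and Ifitm3. At an unadjusted p below 0.05 there were 12 members with a more positive and 6 with a more negative effect in MEFs, and DESeq2 called 12 members in all, beside 16.2% of 26398 genes. With a replicate block 4 stayed called, beside 7.15% of all genes called in that fit. The edgeR adjusted p was 0.0109 for Trim25, 0.0252 for Ddx58 and for Tap1 and 0.04999 for Tap2, and Eif2ak2 gave 0.0698 and Ifitm3 0.0932. The values stand with each gene below.

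By role, receptors had the highest median log2 difference of WT MEFs from WT mESCs, at 3.11, while single members of other roles differed more. Ifnar1, a chain of the type I interferon receptor, was at 52.7 and 50.9 CPM in WT mESCs, 42.2, 45.9 and 37.8 in Atxn7l3-/- mESCs, 110, 119 and 103 in WT MEFs and 124, 119 and 116 in the MEFs labelled Atxn7l3-/-. Ifngr2, a chain of the interferon gamma receptor, was at 5.35 and 5.51 CPM in WT mESCs, 8.17, 9.18 and 9.02 in Atxn7l3-/- mESCs, 73.4, 122 and 140 in WT MEFs and 101, 116 and 138 in the MEFs labelled Atxn7l3-/-. For both genes each MEF library lay above each mESC library, and in mESCs the genotypes did not overlap, with Ifnar1 lower and Ifngr2 higher in Atxn7l3-/-. In WT MEFs over WT mESCs all 4 receptor genes were called higher, with log2 differences of 1.09 (SE 0.18) for Ifnar1, 2.73 (SE 0.37) for Ifnar2, 3.49 (SE 0.32) for Ifngr1 and 4.35 (SE 0.33) for Ifngr2 and edgeR adjusted p between 6.33e-06 and 0.000706. Of all genes tested 26.8% were called higher in WT MEFs, and their median log2 difference was -0.01. None of the 4 receptor genes was called between genotypes by edgeR. Of all genes 3.08% were called higher and 3.88% lower in mESCs, and 5.01% and 4.39% in MEFs. In mESCs Ifngr1 and Ifngr2 had unadjusted p of 0.0375 and 0.0467, and DESeq2 called both. In MEFs the 4 had none below 0.05 and DESeq2 called none.

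Of the 8 transcription factors Irf2, Irf5 and Irf8 were called higher and Stat2 lower in WT MEFs than in WT mESCs, beside 26.8% and 27.1% of all genes. The median log2 difference was 1.31 (all genes -0.01). The call of Irf8 ended without mESC WT 1 (adjusted p = 0.0628). Stat2, which joins IRF9 in the factor that binds ISRE, was at 45.7 and 46.4 CPM in WT mESCs and 54.1, 40.1 and 75.5 in Atxn7l3-/- mESCs, and at 19.1, 25.3 and 15.3 in WT MEFs and 17.5, 13.0 and 18.9 in the MEFs labelled Atxn7l3-/-. Every mESC library lay above every MEF library, and the genotypes overlapped in both cell types. The log2 difference of WT MEFs from WT mESCs was -1.21 (SE 0.32, edgeR adjusted p = 0.00828). Irf5, a factor that acts downstream of Toll-like receptors, was at 2.86 and 2.50 CPM in WT mESCs and 4.06, 2.36 and 2.97 in Atxn7l3-/- mESCs. In MEFs Irf5 was at 11.6, 20.2 and 15.5 CPM in WT and 60.6, 61.9 and 34.8 in the libraries labelled Atxn7l3-/-, and its log2 difference between the WT groups was 2.55 (SE 0.40, edgeR adjusted p = 0.000478). All 3 of the latter lay above all 3 WT libraries, with library 3 the lowest of them, while the mESC genotypes overlapped. Irf5 was called higher in MEFs labelled Atxn7l3-/-, with a log2 fold change of 1.71 (SE 0.32, edgeR adjusted p = 0.0280). The call ended without MEF WT 1 (adjusted p = 0.0629), WT 3 (0.0926), Atxn7l3-/- 1 (0.0873) or Atxn7l3-/- 2 (0.0894), with log2 fold changes of 1.54 to 1.70. The difference of its effect from that in mESCs did not pass, at 1.48 (SE 0.49, adjusted p = 0.0712).

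Irf3, the factor that MAVS signalling activates, was at 29.2 and 29.5 CPM in WT mESCs, 13.8, 19.7 and 16.6 in Atxn7l3-/- mESCs, 31.2, 56.1 and 52.0 in WT MEFs and 32.1, 42.0 and 31.8 in the MEFs labelled Atxn7l3-/-. In mESCs all 3 knockout libraries lay below both WT libraries, and in MEFs the genotypes overlapped. Its log2 fold change in mESCs, -0.75 (SE 0.24), did not pass in edgeR (adjusted p = 0.0921) and passed in DESeq2 (adjusted p = 0.0254). Irf1, induced by interferon gamma, was at 20.8 and 19.6 CPM in WT mESCs, 23.1, 16.8 and 15.1 in Atxn7l3-/- mESCs, 24.3, 33.7 and 15.8 in WT MEFs and 45.9, 47.3 and 22.98 in the MEFs labelled Atxn7l3-/-. Its genotypes overlapped in both cell types. Irf9 had a log2 fold change of -1.04 (SE 0.30) in mESCs, where its genotypes did not overlap, and an edgeR adjusted p of 0.0736; DESeq2 called it (0.0103). Irf2 and Irf8 were called higher in WT MEFs than in WT mESCs, with log2 differences of 3.995 (SE 0.66) and 4.55 (SE 1.13), and Irf7, the factor that amplifies interferon production, was not called in any comparison.

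Among sensors, Ddx58 stood out by the difference of its knockout effect between the cell types. Ddx58 was at 21.4 and 23.2 CPM in WT mESCs and 4.71, 12.6 and 8.50 in Atxn7l3-/- mESCs, and at 61.3, 43.4 and 46.1 in WT MEFs and 115, 116 and 73.2 in the MEFs labelled Atxn7l3-/-. The genotypes did not overlap in either cell type, with knockout libraries the lower ones in mESCs and the higher ones in MEFs. Neither difference passed in edgeR, with log2 fold changes of -1.31 (SE 0.39, adjusted p = 0.0784) in mESCs and 0.99 (SE 0.25, adjusted p = 0.0553) in MEFs, where a replicate block gave adjusted p = 0.0487. The difference between the effects was called, at 2.37 (SE 0.49, edgeR adjusted p = 0.0171), and ended without mESC WT 1 (adjusted p = 0.0669) or WT 2 (0.0779). DESeq2 called Ddx58 in both cell types, with adjusted p of 0.0167 and 0.0178.

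Tlr4, which recognises bacterial lipopolysaccharide and can drive interferon production, was at 0.907 and 0.305 CPM in WT mESCs and 0.529, 1.04 and 0.0440 in Atxn7l3-/- mESCs. In MEFs it was at 10.3, 12.2 and 9.10 CPM in WT and 50.6, 52.8 and 24.2 in the libraries labelled Atxn7l3-/-. The latter all lay above WT, with library 3 the lowest of them. The log2 fold change in MEFs was 1.99 (SE 0.34, edgeR adjusted p = 0.0229). The call ended without MEF WT 1 (adjusted p = 0.0610), WT 3 (0.0816), Atxn7l3-/- 1 (0.0771) or Atxn7l3-/- 2 (0.0758). Tmem173, which encodes the DNA-sensing adaptor STING, was at 7.82 and 7.32 CPM in WT mESCs, 8.49, 9.75 and 7.29 in Atxn7l3-/- mESCs, 11.7, 32.7 and 14.2 in WT MEFs and 86.9, 91.7 and 37.0 in the MEFs labelled Atxn7l3-/-. Its MEF genotypes did not overlap, and its mESC genotypes did. The log2 fold change in MEFs, 1.85 (SE 0.51), did not pass in edgeR (adjusted p = 0.0646) and passed with a replicate block (adjusted p = 0.0328).

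Mavs, the adaptor, was at 46.7 and 50.7 CPM in WT mESCs, 69.1, 69.7 and 48.0 in Atxn7l3-/- mESCs, 56.9, 38.6 and 49.4 in WT MEFs and 41.8, 37.4 and 42.7 in the MEFs labelled Atxn7l3-/-. Both genotypes overlapped in each cell type, with the MEFs labelled Atxn7l3-/- all below the mESC libraries, and the log2 difference of WT MEFs from WT mESCs was -0.02 (SE 0.24). The helicase Ifih1 ran from 0.0610 to 0.289 CPM over the 5 mESC libraries, from 5.13 to 13.2 in WT MEFs and from 12.1 to 39.3 in the MEFs labelled Atxn7l3-/-. It was called higher in WT MEFs than in WT mESCs, with a log2 difference of 5.54 (SE 0.87, edgeR adjusted p = 0.000462), and Tlr3, a receptor for double-stranded RNA, was called too at 4.38 (SE 0.79). The median log2 fold change of the 9 sensors and adaptors was -0.12 in mESCs (all genes 0.04) and 0.98 in MEFs (all genes -0.06). By edgeR 1 of the 9 was called in MEFs (Tlr4) and 0 in mESCs, where 2 had an unadjusted p below 0.05. Of all genes 5.01% were called higher and 4.39% lower in MEFs, and 3.08% and 3.88% in mESCs. DESeq2 called Ddx58 and Tlr3 lower in mESCs and Tlr4, Ifih1, Ddx58 and Tmem173 higher in MEFs, and the last 3 had an unadjusted p below 0.05 in edgeR and were not called by it.

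Antiviral effectors were the role with the most members, and edgeR called 0 of 17 by genotype in mESCs and 1 of 18 in MEFs. Of all genes 3.08% were called higher and 3.88% lower in mESCs, and 5.01% and 4.39% in MEFs. At an unadjusted p below 0.05 there were 2 higher and 2 lower in each cell type. DESeq2 called 1 higher in mESCs and 2 higher and 1 lower in MEFs. Eif2ak2 encodes PKR, a kinase that double-stranded RNA activates and that stops translation. It was at 37.1 and 32.0 CPM in WT mESCs and 21.8, 31.6 and 26.1 in Atxn7l3-/- mESCs, and at 69.2, 43.9 and 56.5 in WT MEFs and 123, 136 and 98.2 in the MEFs labelled Atxn7l3-/-. Knockout libraries lay below WT in mESCs and above WT in MEFs, without overlap. In MEFs Eif2ak2 was called higher, with a log2 fold change of 1.06 (SE 0.24, edgeR adjusted p = 0.0428), and with a replicate block the call ended (adjusted p = 0.0515). It also ended without MEF WT 1 (adjusted p = 0.0552), WT 2 (0.0620), WT 3 (0.115), Atxn7l3-/- 1 (0.122) or Atxn7l3-/- 2 (0.135). The difference between the effects was 1.44 (SE 0.33, edgeR adjusted p = 0.0248). That call ended without MEF Atxn7l3-/- 1 (adjusted p = 0.0535) or 2 (0.0573), without Atxn7l3-/- mESC 1 (0.0614) or 3 (0.0531) and without mESC WT 1 (0.112) or WT 2 (0.0845).

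Ifitm3, a membrane protein that hinders viral entry, was at 77.5 and 83.6 CPM in WT mESCs and 143, 116 and 180 in Atxn7l3-/- mESCs, and at 307, 533 and 210 in WT MEFs and 183, 138 and 175 in the MEFs labelled Atxn7l3-/-. It had the highest level of the members per kb in WT mESCs, 119 CPM per kb, and genotypes did not overlap, with knockout libraries higher in mESCs and lower in MEFs. The log2 fold changes, 0.94 (SE 0.25, edgeR adjusted p = 0.0615) in mESCs and -1.10 (SE 0.37, adjusted p = 0.0972) in MEFs, did not pass, and the MEF value was -0.63 without MEF WT 2. The difference between the effects was called, at -1.97 (SE 0.49, edgeR adjusted p = 0.0302). That call ended without MEF Atxn7l3-/- 1 (adjusted p = 0.0524) or 2 (0.0668), without Atxn7l3-/- mESC 1 (0.0641) or 3 (0.0645) and without mESC WT 1 (0.132) or WT 2 (0.117). Ifitm2, of the same family, was at 54.8 and 80.1 CPM in WT mESCs, 74.5, 53.2 and 69.9 in Atxn7l3-/- mESCs, 70.6, 212 and 66.8 in WT MEFs and 70.7, 61.1 and 76.8 in the MEFs labelled Atxn7l3-/-. Here MEF WT 2 stood above all other libraries and the rest overlapped. Ifitm1, the third of them, was at 29.9, 8.71 and 4.33 CPM in WT MEFs and 3.03, 1.47 and 1.40 in the MEFs labelled Atxn7l3-/-, without overlap. Its log2 fold change of -2.90 (SE 0.80) did not pass in edgeR (adjusted p = 0.0656) and passed with a replicate block, at -2.53 (adjusted p = 0.0336).

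Adar, which edits double-stranded RNA and so keeps the cell's own RNA from being sensed, was at 86.8 and 86.2 CPM in WT mESCs, 57.8, 71.6 and 74.9 in Atxn7l3-/- mESCs, 68.9, 48.2 and 52.6 in WT MEFs and 89.5, 67.0 and 73.2 in the MEFs labelled Atxn7l3-/-. Both WT mESC libraries lay above the 3 knockout libraries, the MEF genotypes overlapped, and neither log2 fold change (-0.27 and 0.42) passed. Among the classical interferon targets, Ifit1 and Ifit3, whose promoters are shown above, and Ifit2, all of which encode proteins that bind viral RNA, ran from 0 to 0.367 CPM over the 5 mESC libraries and from 0.951 to 41.3 CPM over the 6 MEF libraries, and all 3 were called higher in WT MEFs, with log2 differences of 4.54 (SE 1.08) for Ifit1, 6.34 (SE 1.08) for Ifit3 and 6.18 (SE 0.50) for Ifit2, of which those of Ifit1 and Ifit3 are imprecise, since mESC WT 2 was below the floor for both. Oas3 and Oasl1, of the oligoadenylate synthetase family, were called lower in WT MEFs, with log2 differences of -3.30 (SE 0.78) and -3.36 (SE 0.65), from 2.89 to 6.50 and 0.935 to 2.28 CPM in WT mESCs to at most 0.719 and 0.205 CPM in WT MEFs. Oas2 was lower with a log2 difference of -1.90 (SE 0.82) that did not pass (adjusted p = 0.0716), and Oasl2 was at 2.85 (SE 1.19) in the other direction (adjusted p = 0.0634). Bst2, which tethers viral particles to the cell, was at 45.4 and 33.5 CPM in WT mESCs and 124, 34.1 and 136 in Atxn7l3-/- mESCs, with libraries 1 and 3 high and library 2 at the WT level. Mx1, Mx2, Rsad2 and Zbp1 stayed at or below 4.80 CPM in all 11 libraries.

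In the ISG15 system Trim25 had the largest difference between cell types among the members called lower in WT MEFs. Trim25, a ubiquitin ligase that acts on RIG-I and can also attach ISG15, was at 500 and 411 CPM in WT mESCs and 310, 333 and 262 in Atxn7l3-/- mESCs, and at 19.1, 19.2 and 12.8 in WT MEFs and 64.9, 74.9 and 43.3 in the MEFs labelled Atxn7l3-/-. The mESC libraries lay far above the MEF libraries, and within each cell type the genotypes did not overlap, with knockout libraries lower in mESCs and higher in MEFs. The log2 difference of WT MEFs from WT mESCs was -4.75 (SE 0.29, edgeR adjusted p = 2.54e-06). In MEFs Trim25 was called higher in the libraries labelled Atxn7l3-/-, with a log2 fold change of 1.82 (SE 0.29, adjusted p = 0.0211). The call ended without MEF WT 1 (adjusted p = 0.0531), WT 3 (0.0647), Atxn7l3-/- 1 (0.0711) or Atxn7l3-/- 2 (0.0666). In mESCs its log2 fold change of -0.53 (SE 0.19) did not pass (adjusted p = 0.121). The difference between the effects, 2.41 (SE 0.37, edgeR adjusted p = 0.00557), stayed called without each library in turn and with the replicate block.

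Isg15, the ubiquitin-like modifier with 3 ISRE-like matches in its promoter, was at 0.772 and 0.0407 CPM in WT mESCs, 0.328, 0.255 and 0.704 in Atxn7l3-/- mESCs, 7.40, 17.4 and 4.83 in WT MEFs and 7.62, 3.03 and 4.84 in the MEFs labelled Atxn7l3-/-. Usp18, the protease that removes ISG15 and dampens receptor signalling, was at 2.12 and 0.122 CPM in WT mESCs, 0.428, 0.0213 and 1.87 in Atxn7l3-/- mESCs, 4.58, 4.88 and 2.81 in WT MEFs and 5.02, 0.694 and 1.79 in the MEFs labelled Atxn7l3-/-. For both genes the genotypes overlapped in each cell type, and mESC WT 1 and Atxn7l3-/- mESC 3 were high beside mESC WT 2. Isg15 was called higher in WT MEFs than in WT mESCs, with a log2 difference of 4.60 (SE 1.13, edgeR adjusted p = 0.00610), and Usp18 was not (1.87, SE 1.42).

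**Figure D3:**
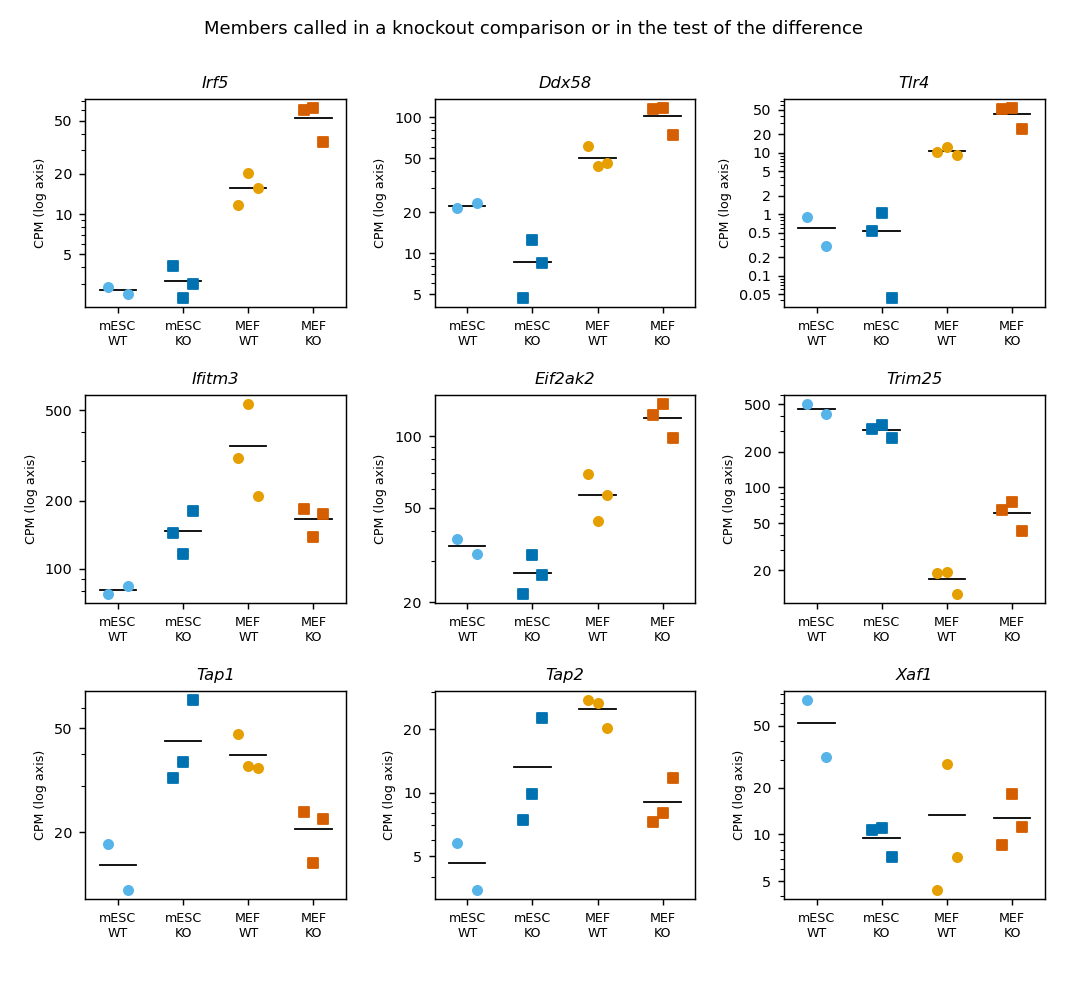
CPM on log axes in each library for the 9 members called in a knockout comparison or in the test of the difference between cell types, with circles for WT, squares for libraries labelled Atxn7l3-/- and bars at group means (n = 2, 3, 3 and 3). CPM of Trim25, Ddx58 and Eif2ak2 lay above WT in MEFs labelled Atxn7l3-/- and below WT in Atxn7l3-/- mESCs, and those of Tap1, Tap2 and Ifitm3 the other way round.

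Of the antigen processing members, Tap1 was called higher in Atxn7l3-/- mESCs and Tap2 lower in MEFs labelled Atxn7l3-/-. Tap1, which with Tap2 carries peptides into the endoplasmic reticulum for MHC class I, was at 18.04 and 12.1 CPM in WT mESCs and 32.3, 37.3 and 64.1 in Atxn7l3-/- mESCs, and at 47.7, 35.8 and 35.2 in WT MEFs and 23.9, 15.3 and 22.4 in the MEFs labelled Atxn7l3-/-. Tap2 was at 5.79 and 3.48 CPM in WT mESCs and 7.41, 9.86 and 22.5 in Atxn7l3-/- mESCs, and at 27.4, 26.6 and 20.3 in WT MEFs and 7.24, 7.97 and 11.8 in the MEFs labelled Atxn7l3-/-. For both, knockout libraries lay above WT in mESCs, with library 3 the highest, and below WT in MEFs, without overlap. Tap1 was called higher in Atxn7l3-/- mESCs, with a log2 fold change of 1.64 (SE 0.37, edgeR adjusted p = 0.0436). The call ended without mESC WT 1 (1.95, adjusted p = 0.196), WT 2 (1.38, adjusted p = 0.263) or Atxn7l3-/- mESC 1 (1.83, adjusted p = 0.0924), where at most 3 genes of all were called, and in MEFs Tap1 had -0.96 (SE 0.27, adjusted p = 0.0656). Tap2 was called lower in MEFs labelled Atxn7l3-/-, with -1.47 (SE 0.32, edgeR adjusted p = 0.0402), and with a replicate block the call ended (adjusted p = 0.0507). It also ended without MEF WT 1 (adjusted p = 0.0796), WT 2 (0.0738), WT 3 (0.0848), Atxn7l3-/- 1 (0.124) or Atxn7l3-/- 2 (0.130). A correction for GC content brought it to -0.87 (adjusted p = 0.105), and in mESCs Tap2 had 1.60 (SE 0.56, adjusted p = 0.1104).

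The difference between the effects was called for both transporter subunits, at -2.54 (SE 0.48, edgeR adjusted p = 0.0127) for Tap1 and -3.00 (SE 0.67, adjusted p = 0.0216) for Tap2. The calls ended without mESC WT 1 (adjusted p = 0.0524 for Tap1 and 0.0784 for Tap2) or WT 2 (0.0803 and 0.117). B2m, the light chain of MHC class I, with 1 ISRE-like match, was at 40.8 and 23.2 CPM in WT mESCs, 79.3, 51.8 and 44.7 in Atxn7l3-/- mESCs, 523, 802 and 606 in WT MEFs and 809, 598 and 560 in the MEFs labelled Atxn7l3-/-. All MEF libraries lay above all mESC libraries, the mESC genotypes did not overlap and the MEF genotypes did. The log2 difference of WT MEFs from WT mESCs was 4.33 (SE 0.41, edgeR adjusted p = 2.19e-05), and in WT MEFs B2m had the highest level of the members, 748 CPM per kb. The immunoproteasome subunit Psmb8 was called higher in WT MEFs too, at 5.91 (SE 0.95), with 0.174 and 0.102 CPM in WT mESCs and 10.01, 10.04 and 5.42 CPM in WT MEFs. The median log2 fold change of the antigen processing members was 1.27 in mESCs (4 tested, all 4 above 0) and -1.01 in MEFs (5 tested, 1 above 0). That of the difference between the effects was -1.71. For all genes these medians were 0.04, -0.06 and -0.09.

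Xaf1 was at 73.2 and 31.7 CPM in WT mESCs and 10.6, 10.9 and 7.13 in Atxn7l3-/- mESCs, and at 4.42, 28.5 and 7.19 in WT MEFs and 8.53, 18.3 and 11.2 in the MEFs labelled Atxn7l3-/-. Both WT mESC libraries lay above the 3 knockout libraries and differed from each other, and in MEFs the genotypes overlapped, with WT 2 the highest. Its log2 fold change in mESCs was -2.39 (SE 0.38, edgeR adjusted p = 0.0233). The call ended without mESC WT 1 (-1.67, adjusted p = 0.173), WT 2 (-2.87, adjusted p = 0.123) or Atxn7l3-/- mESC 1 (-2.48, adjusted p = 0.0835). With Atxn7l3-/- mESCs 1 and 2 both left out, chosen after seeing the data, Xaf1 stayed called at -2.76 (adjusted p = 0.0101) and Tap1 at 2.20 (adjusted p = 0.00469), and the lone knockout library is then assumed to vary like the WT libraries. Under that setting 5 of 53 members were called higher and 4 lower in mESCs, beside 9.64% and 11.1% of 18739 genes. In the test of the difference Ddx58, Tap1, Tap2 and Trim25 stayed called and Eif2ak2 (adjusted p = 0.0834) and Ifitm3 (0.0671) did not.

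Among the other interferon-induced members, Parp9, which acts with the ubiquitin ligase Dtx3l, was at 17.0 and 12.3 CPM in WT mESCs, 11.4, 22.0 and 12.8 in Atxn7l3-/- mESCs, 19.7, 19.6 and 10.0 in WT MEFs and 35.0, 52.7 and 25.6 in the MEFs labelled Atxn7l3-/-. In MEFs its genotypes did not overlap, and the log2 fold change of 1.17 (SE 0.39) did not pass in edgeR (adjusted p = 0.0951) and passed with a replicate block (1.19, adjusted p = 0.0412). Ifi35 was at 13.6 and 11.02 CPM in WT mESCs, 15.1, 15.3 and 13.1 in Atxn7l3-/- mESCs, 27.98, 40.1 and 27.6 in WT MEFs and 25.3, 25.7 and 24.1 in the MEFs labelled Atxn7l3-/-. Every MEF library lay above every mESC library, and its log2 difference between the WT groups was 1.37 (SE 0.27, edgeR adjusted p = 0.00187). Ifi27 was at 33.7 and 1.52 CPM in WT mESCs, 20.97, 1.36 and 42.9 in Atxn7l3-/- mESCs, 35.8, 136 and 20.5 in WT MEFs and 63.7, 47.6 and 51.5 in the MEFs labelled Atxn7l3-/-. In mESCs it split each genotype into high and low libraries, with WT 2 and Atxn7l3-/- 2 the low ones.

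**Figure D4:**
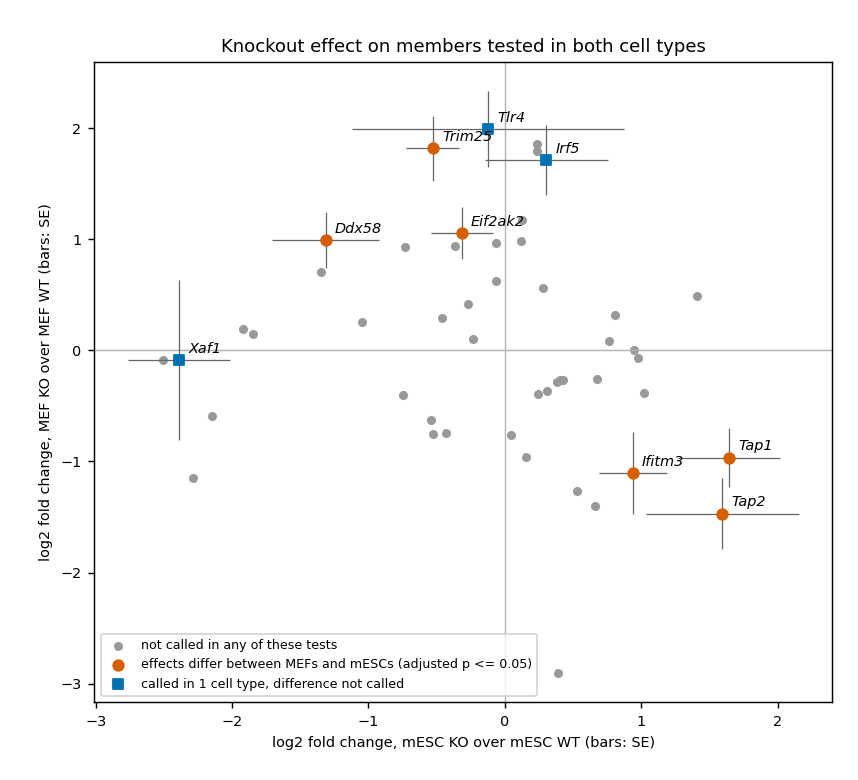
Log2 fold change of each member tested in both cell types, libraries labelled Atxn7l3-/- over WT, in MEFs (vertical) against mESCs (horizontal), with SE bars for the 9 called members. Those whose effects differed between the cell types (orange) lay at the upper left (Ddx58, Trim25 and Eif2ak2) and at the lower right (Tap1, Tap2 and Ifitm3).

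Same-numbered MEF libraries of the 2 genotypes deviated together. With the replicate number as a block, 6 members were called higher in MEFs labelled Atxn7l3-/-, namely Trim25, Parp9, Tmem173, Irf5, Tlr4 and Ddx58, and 1 lower, Ifitm1. Of all genes 5.50% were called higher and 8.49% lower with the block. By edgeR without a block, leaving out MEF WT 1, MEF WT 3, Atxn7l3-/- 1 or Atxn7l3-/- 2 left 0 members called in either direction, where 12, 9, 9 and 7 had an unadjusted p below 0.05 in the higher and 5, 6, 14 and 3 in the lower direction, and DESeq2 on all libraries called 9 and 4. Of all genes 2.85%, 1.20%, 1.51% and 1.71% were called in these fits, beside 9.41% with every library. Without MEF WT 2 there were 4 higher and 0 lower, with 4 lower at an unadjusted p below 0.05 (5.23% of all genes called), and without Atxn7l3-/- 3 there were 7 higher (12.2%). In mESCs 0 members were called in either direction without WT 1, WT 2 or Atxn7l3-/- 1, where 7, 2 and 3 members had an unadjusted p below 0.05 in the higher and 3, 10 and 8 in the lower direction, and DESeq2 on all libraries called 5 and 5. Of all genes at most 3 were called there, so these counts do not set the members apart. Without Atxn7l3-/- mESC 2 there were 3 higher and 3 lower, beside 6.06% and 6.75% of all genes. The count for the difference between effects was 1 (Trim25) without mESC WT 1 or WT 2, where 1.25% and 1.59% of all genes were called. With either of these left out, the lone WT library is assumed to vary like the other group.

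Members also varied among libraries of 1 group, and in mESCs several were high in the same library. Of 50 members above the floor in both WT mESC libraries, 39 were higher in WT 1. Over the 49 of them that were tested, the median ratio of the higher to the lower library was 1.46, beside 1.23 for 17464 genes. The ratio exceeded 4 for 6 members, beside 1.41% of those genes: Ifi27 (22.1), Irf7 (19.0), Usp18 (17.4), Oasl2 (10.1), Gbp3 (7.37) and Gbp2 (7.31). In Atxn7l3-/- mESCs 8 of 46 members had a ratio of the highest to the lowest library above 4, beside 8.01% of genes. Library 3 was highest and library 2 lowest for Ifi27 (31.5), Irf7 (13.0) and Oasl2 (8.50), library 1 was highest for Gbp2 (15.9), Irf8 (5.92), Gbp3 (5.44) and Rsad2 (5.44), and Tlr2 (24.5) was highest in library 2 and lowest in library 3. In WT MEFs 39 of 56 members were lowest in library 3, and the median ratio over the 54 tested was 2.05, beside 1.79 for all genes, with 6 of the 54 above 4, beside 12.8% of genes. In the MEFs labelled Atxn7l3-/- the median ratio over 53 tested members was 2.06, beside 1.54, and library 1 was highest for all 10 of the 53 with a ratio above 4 (beside 10.53% of genes), namely Irf8, Zbp1, Ifit3, Oas2, Oasl2, Mx2, Rsad2, Usp18, Psmb8 and Ifi44. These members were chosen for their ratios after the values were seen. Which library was highest or lowest was not counted over all genes. Counts such as 39 of 50 and 39 of 56 thus only describe the members and do not set them apart.

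Myeloid cells express many of the members strongly, and MEF cultures can hold them. The macrophage and myeloid list of 18 genes summed to 1304, 1488 and 756 CPM in WT MEFs and to 6856, 2393 and 924 CPM in the MEFs labelled Atxn7l3-/-, so that library 1, in which those 10 members were highest, also had the highest sum. Lyz2 was the most abundant gene in all 6, at 525, 668 and 358 CPM in WT and 5452, 2047 and 718 CPM in the others. Without Lyz2, the rest of the list summed to less in libraries 2 and 3 labelled Atxn7l3-/- than in every WT library, and to more in library 1. Of 17 genes of the list tested, edgeR called 0 between the MEF genotypes, where 1 had an unadjusted p below 0.05 and DESeq2 called 1, Lyz2. Their median log2 fold change was 0.05. Cd163 was at 0 in the 3 libraries labelled Atxn7l3-/- and at or below 0.0618 CPM in WT, and the other 17 exceeded the floor in all 6 libraries. For mESCs 11 of the 18 genes were listed, and these summed to at most 114 CPM, with Cd68 the most abundant. There edgeR called 0 of 6 tested, where 2 had an unadjusted p below 0.05 and DESeq2 called 0. A list of mesothelial genes differed more sharply: 5 of 5 were called higher in the MEFs labelled Atxn7l3-/-, with sums of 15.0, 40.5 and 19.4 CPM in WT and 8853, 7372 and 5839 CPM in the others, none was at 0, and Upk1b was the most abundant in 5 of the 6. The part of either list in the MEF results was not tested, and in bulk samples fewer cells of a type and less RNA per cell cannot be told apart. Of 11 fibroblast genes edgeR called 0 between MEF genotypes, where 3 had an unadjusted p below 0.05 and DESeq2 called 3 (Dcn, Col5a1 and Postn). With a replicate block Dcn (log2 fold change 4.38, adjusted p = 0.0249) and Pdgfra (2.35, adjusted p = 0.0276) were called higher and Col5a1 (-2.37, adjusted p = 0.0398) lower in the MEFs labelled Atxn7l3-/-. Their sums were 9449, 49843 and 19145 CPM in WT and 19757, 21510 and 26714.5 CPM in the others, with Col3a1 the most abundant in the latter and no gene at 0.

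**Figure D5:**
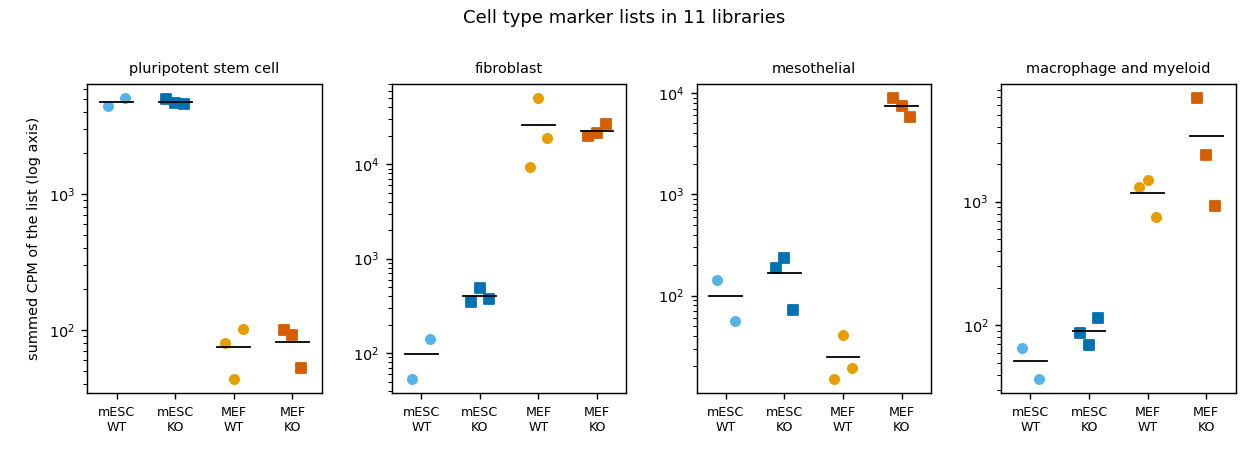
Summed CPM of 4 marker lists in each library on log axes, with circles for WT, squares for libraries labelled Atxn7l3-/- and bars at group means (n = 2, 3, 3 and 3). The pluripotency sums cover 6 of the 8 genes in MEFs, and the macrophage and myeloid sums 11 of the 18 in mESCs. The mesothelial list stood at 15.0 to 40.5 CPM in WT MEFs and at 5839 to 8853 CPM in the MEFs labelled Atxn7l3-/-, and the macrophage and myeloid list was highest in library 1 of the latter.

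The other lists gave few calls. Lymphoid genes summed to at most 1.36 CPM in MEFs, where none was tested, and to at most 76.6 CPM in mESCs, where edgeR called 0 of 6, 1 had an unadjusted p below 0.05 and DESeq2 called 1. Of the endothelial list, which summed to 92.8, 12.6 and 31.9 CPM in WT MEFs and 23.1, 11.6 and 4.03 CPM in those labelled Atxn7l3-/-, Flt1 was called lower in the latter, and Tie1 was called lower in Atxn7l3-/- mESCs. In MEFs the genes did not all go the same way: DESeq2 called Cdh5, Kdr and Flt1 lower and Tek higher in the libraries labelled Atxn7l3-/-. The list's median log2 fold change there was -1.53 over 6 genes tested. In the MEFs labelled Atxn7l3-/- Alas2 of the erythroid list, Krt18 of the epithelial list and Tfcp2l1 of the pluripotency list were called higher, and in Atxn7l3-/- mESCs Epcam was called higher and Kdm5d of the sex list lower. Epcam is on the epithelial list too, whose median log2 fold change in mESCs was -1.46 over 6 genes tested, with 3 lower at an unadjusted p below 0.05, and DESeq2 called Krt8, Krt18 and Krt19 lower there. Tfcp2l1 was 1 of 4 pluripotency genes tested in MEFs, whose median log2 fold change was -0.71, and DESeq2 called Esrrb lower in those labelled Atxn7l3-/-. The calls of Flt1 and Tfcp2l1 stayed without each library in turn. Tie1 ended without mESC WT 1 (adjusted p = 0.154), WT 2 (0.157) or Atxn7l3-/- 1 (0.0815), Epcam without WT 1 (0.215), WT 2 (0.190) or Atxn7l3-/- 1 (0.0835), and Kdm5d without WT 1 (0.154), WT 2 (0.237) or Atxn7l3-/- 1 (0.106). Alas2 ended without MEF WT 1 (adjusted p = 0.0859), WT 2 (0.0619), WT 3 (0.0953) or Atxn7l3-/- 1 (0.0873) and with a replicate block (0.0656), and Krt18 without MEF WT 1 (0.0579), WT 3 (0.0648) or Atxn7l3-/- 1 (0.0567). With a replicate block Kdr of the endothelial list (-2.34, adjusted p = 0.0274) and Sox2 of the pluripotency list (-4.69, adjusted p = 0.0411) were also called lower in those MEFs.

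Other genes of the pathway were described from separate lists. Of 21 interferon ligand genes 7 were listed in a table, none exceeded 0.507 CPM, and 1 (Ifnz) was tested in MEFs and not called by genotype. Of 18 further sensing genes, 13 tested in mESCs gave 1 call, Unc93b1, which brings Toll-like receptors to endosomes (log2 fold change 1.69), and 18 tested in MEFs gave 1, the RNA-binding antiviral gene Zc3hav1 (1.31), both higher, with medians of -0.25 and 0.43. Of all genes tested 3.08% were called higher and 3.88% lower in mESCs, and 5.01% and 4.39% in MEFs. Unc93b1 ended without mESC WT 1 (adjusted p = 0.187), WT 2 (0.237) or Atxn7l3-/- 1 (0.101). Zc3hav1 ended without MEF WT 1 (0.0857), WT 2 (0.0534), WT 3 (0.1197), Atxn7l3-/- 1 (0.109) or 2 (0.118). With a replicate block Myd88 (1.16, adjusted p = 0.0462) and Ifi204 (1.42, adjusted p = 0.0395) were also called higher in MEFs.

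Of 54 further interferon-induced genes, 42 were tested in mESCs and 47 in MEFs. Beside their calls, 3.08% of all genes were called higher and 3.88% lower in mESCs, and 5.01% and 4.39% in MEFs. In Atxn7l3-/- mESCs Ube2l6, the conjugating enzyme for ISG15 (log2 fold change 2.10), and Shisa5 (1.05) were called higher, and Gbp4 (-5.02), Irgm1 (-4.23) and Znfx1 (-1.12) lower. In the MEFs labelled Atxn7l3-/- the interferon-inducible GTPase Ifi47 (4.04), Ube2l6 (2.14) and Helz2 (1.23) were called higher and Iigp1 (-2.94) lower. Ube2l6 was called higher in both cell types, at 29.9 and 24.1 CPM in WT and 132, 68.5 and 127 CPM in Atxn7l3-/- mESCs, and at 13.7, 19.9 and 11.5 CPM in WT MEFs and 84.4, 57.1 and 60.2 CPM in the libraries labelled Atxn7l3-/-. Ifi47 was at 4.48, 4.32 and 8.08 CPM in WT MEFs and 108, 91.4 and 81.4 CPM in the others, and stayed called without each library in turn. Knockout libraries were above WT for both genes in MEFs without overlap. With a replicate block Ifi27l2b (4.07, adjusted p = 0.0394) and Ddx60 (2.17, adjusted p = 0.0357) were also called higher there. The call of Ube2l6 ended without mESC WT 1 (adjusted p = 0.165), WT 2 (0.178) or Atxn7l3-/- 1 (0.0835) and, in MEFs, without WT 3 (0.0538) or Atxn7l3-/- 1 (0.0515).

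Irgm1, an immunity-related GTPase, was at 30.1 and 2.11 CPM in WT mESCs and 0.655, 0.766 and 1.01 CPM in Atxn7l3-/- mESCs, so that WT 1 stood apart. Without WT 1 its log2 fold change was -1.31 (adjusted p = 0.374), and the call also ended without WT 2 (0.0659) or Atxn7l3-/- 1 (0.134), 2 (0.0746) or 3 (0.0509). Shisa5 ended without mESC WT 1 (adjusted p = 0.209), WT 2 (0.257) or Atxn7l3-/- 1 (0.104), and Gbp4 without WT 1 (0.138), WT 2 (0.129) or Atxn7l3-/- 1 (0.0815). Znfx1 ended without WT 1 (0.225), WT 2 (0.230) or Atxn7l3-/- 1 (0.123) or 3 (0.0570). In MEFs Helz2 ended without WT 1 (0.0555), WT 3 (0.0783) or Atxn7l3-/- 1 (0.0754) or 2 (0.0753). Iigp1 ended without WT 1 (0.0732), WT 2 (0.0545), WT 3 (0.0734) or Atxn7l3-/- 1 (0.0830), 2 (0.132) or 3 (0.0640). The list medians were -0.52 in mESCs and 0.17 in MEFs. Of 16 MHC class I genes edgeR called 0 by genotype in either cell type, with medians of 0.25 and 0.15, where 5 (mESCs) and 2 (MEFs) of the 16 passed an unadjusted p of 0.05 and DESeq2 called 1 and 0.

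Counts of some members may include reads of a neighbour. Of the 56 members 3 shared exon bases with a protein-coding gene on the same strand, of which Ifitm2 shared 40.9% of its exon bases with Gm45717, and 9 shared bases with one on the opposite strand, of which Adar shared 16.8% with Chrnb2, Irf5 14.2% with Tnpo3, and Psmb9 and Tap1 shared 5.79% and 3.87% with each other. Whether counting used strand is not given in the labels. Whether reads of the Ifit, Ifitm, Oas and Gbp families align to more than 1 family member was not tested.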

How the data were processed

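Raw read counts of 11 libraries were used as deposited (5 of mESCs and 6 of MEFs). The authors made the counts from poly(A) stranded libraries mapped to mm10, and per the labels bcl2fastq 2.17.1.14, cutadapt 1.10, STAR 2.5.3a, HTSeq 0.6.1p1 and DESeq2 1.16.1 were used, with the strand setting not given. The deposited signal values are these counts divided by a DESeq2 size factor and by the median transcript length in kb, and they served for the study's thresholds. The deposited log2 fold changes, p and adjusted p of Atxn7l3-/- against WT were not used. The lengths, in bases, are other values the authors give per the file headers. The members and lists were chosen with earlier results of these data known.

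Counts were tested in edgeR 4.0.16 (R 4.3.3, limma 3.58.1) with filterByExpr, TMM and quasi-likelihood tests, adjusted over all genes tested. Genotypes were compared within each cell type. WT groups, and the knockout effect in MEFs minus that in mESCs, were compared in 1 fit of the 26398 genes listed in both tables. The procedure was tested on simulated data. Alternatives were DESeq2 1.42.0, RLE and upper-quartile normalization, no filter or at least 10 counts in every library, a GC correction (lowess span 0.3), a replicate block, 1 fit for all, the study's thresholds, WT libraries alone, genes of 1 table taken as 0 in the other, and left-out libraries. The last-named gene choice, and leaving out Atxn7l3-/- mESCs 1 and 2 together, were chosen after seeing the data. Tables and figures used Python 3.11.15, pandas 2.3.3, numpy 2.4.6 and matplotlib 3.10.9, and exons were read from GENCODE M21.

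Same-numbered MEF libraries correlated, after group means were taken out, with r of 0.473, 0.161 and 0.240 across 15958 genes. The pairing was read from these data, not from the labels. Replicates differed by more than counting error, with chi-square per gene of 75.8 to 483. Values in every library are given for members called by genotype or in the test of the difference, the 3 highest per kb in WT, and for each role 1 or 2 members not called with the highest CPM. Named genes of the pathway lists were those called by genotype or called in MEFs with the replicate block. The lists are not complete. In the lists 1 gene is not reported here, and the counts and median of the list that held it are left out, since it was taken out after the values were seen.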

Additional observations from a re-analysis of the deposited data

Results flagged for a closer look

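For 6 members the knockout effect differed between MEFs and mESCs by edgeR's test of that difference (10.7% of the members, beside 11.4% of all genes). The log2 difference, MEFs minus mESCs, was 2.41 for Trim25, 2.37 for Ddx58 and 1.44 for Eif2ak2, each with a fold change below 0 in mESCs and above 0 in MEFs. It was -2.54 for Tap1, -3.00 for Tap2 and -1.97 for Ifitm3, each with the opposite signs. By genotype Trim25 and Eif2ak2 were called in MEFs, Tap1 in mESCs and Tap2 in MEFs, and the other values did not pass. The call of Trim25 stayed without each library in turn, and those of the other 5 ended. Without mESC WT 1 the adjusted p was 0.0669 for Ddx58, 0.112 for Eif2ak2, 0.0524 for Tap1, 0.0784 for Tap2 and 0.132 for Ifitm3, and without mESC WT 2 it was 0.0779, 0.0845, 0.0803, 0.117 and 0.117; of all genes 1.25% and 1.59% were called there. Eif2ak2 and Ifitm3 also ended without Atxn7l3-/- mESC 1 (0.0614 and 0.0641), mESC 3 (0.0531 and 0.0645), MEF 1 (0.0535 and 0.0524) or MEF 2 (0.0573 and 0.0668), and with a replicate block (0.0698 and 0.0932). Atxn7l3 RNA was at 60.2% of the WT mean in the MEFs labelled Atxn7l3-/- and at 0.950% in the Atxn7l3-/- mESCs. These libraries give no measure of the protein, and cell type cannot be told apart from any batch.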

How the results depend on the processing

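Of the counts of called members, 46 of 66 values under other settings and 35 of 55 with 1 library left out stayed within 1.5 times. In mESCs (1 higher, 1 lower) there were 2 lower with RLE and with upper-quartile normalization, beside 4.06% and 4.12% of all genes. No filter gave 5 and 4 (beside 4.47% and 5.16%), DESeq2 5 and 5 (5.51% and 5.50%), and a GC correction plus replicate block 2 and 2 (4.63% and 5.31%). With 1 fit of all 11 libraries edgeR called 0 and 0, beside 0.75% and 1.56% of all genes, where 7 and 9 members had an unadjusted p below 0.05. The replicate block alone gave 2 higher in mESCs, beside 4.04% of all genes (same-number r 0.00777 and -0.172). Among members the block changed no MEF or interaction call other than those given, and among list genes no other MEF call. In MEFs (4 higher, 1 lower) there were 2 lower with no filter (beside 3.35% of all genes) and 9 and 4 with DESeq2 (5.49% and 7.98%). A GC correction gave 0 lower (beside 3.24%), where 4 had an unadjusted p below 0.05, and 1 fit for all gave 3 lower (beside 10.7%). At least 10 counts in every library left 33 members tested and 15 higher in WT MEFs, beside 27.1% of all genes. DESeq2 called 12 members for the difference between effects, beside 16.2% of all genes. With 1 library left out, counts ran from 0 to 3 higher and 0 to 3 lower in mESCs, from 0 to 7 higher and 0 to 1 lower in MEFs, and from 1 to 9 for the difference, 9 being without MEF WT 2. The study's thresholds changed no count by genotype.

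Of the 9 members called by genotype or for the difference, the values that were not called changed sign for 2; the other members were not followed through each setting. Tlr4 in mESCs (-0.12) was 0.53 with a replicate block, 0.0438 with a GC correction and 0.71 with both, -0.99 to 0.85 with 1 library left out and -3.60 without Atxn7l3-/- mESCs 1 and 2. Xaf1 in MEFs (-0.09) was 0.31 with a replicate block, 0.0879 with a GC correction too, and -0.50 to 1.15 with 1 library left out. The cause was not tested, apart from the smaller number of genes under the stricter filter and of libraries in the others. Upper-quartile normalization moved the median of all genes from -0.06 to -0.17 in MEFs. Counting error limits members below 1 CPM, 16 of 56 in WT mESCs.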
